A study of Mus musculus with 16 samples.

Results

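Genes of lipid uptake, storage and release were followed in mouse atria over the first week after a myocardial infarction. The 10 genes were listed by name: Cd36, Lpl, Fabp3, Fabp4, Acsl1, Dgat2, Plin2, Plin5, Pnpla2 and Acot2. A gene was read from the row annotated with its symbol alone, taking the brightest on average where there were several. Such a row was found for 9 of the 10 genes, out of 30142 genes in all, and all 9 were among the 18418 genes tested; Acsl1 was not analysed here. The samples were 16 single-colour arrays of total RNA from atrial tissue of male C57BL/6 mice aged 10 weeks. Sham-operated mice gave 4 arrays, numbered 1 to 4. Mice whose left anterior descending coronary artery had been tied off gave 4 arrays each at 1, 3 and 7 days, numbered 11 to 14, 31 to 34 and 71 to 74. The labels do not date the sham samples, and the title of the series gives them day 0. The labels do not say whether the infarct itself reached the atria, or whether animals were pooled, so the p-values measure the spread between these arrays.

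A working heart takes most of its fuel from fatty acids. Lipoprotein lipase frees them from circulating triglyceride at the capillary wall, CD36 helps them into the cell, and fatty acid-binding proteins carry them inside it. Acyl-CoA synthetases activate them, after which they are either burned in mitochondria or stored by DGAT enzymes as triacylglycerol in lipid droplets. Perilipins coat the droplets, and the lipase encoded by Pnpla2 opens the way for stored fat to be released again. Many genes of this route are known targets of the fatty acid-sensing nuclear receptor PPAR-alpha and its partner RXR, which bind repeats of the motif AGGTCA.

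Plin2 and Plin5 encode perilipins of the same family and moved in opposite directions in these data, so the stretch in front of each gene is shown. The windows run from 250 bases before to 50 bases after a transcript start that RefSeq lists for the gene, which is not always its outermost start, on the minus strand of the build GRCm38.p6. The Plin2 window is chr4:86670010-86670309 and the Plin5 window is chr17:56117499-56117798. Capitals mark the receptor motif AGGTCA or its reverse complement TGACCT.
Plin2: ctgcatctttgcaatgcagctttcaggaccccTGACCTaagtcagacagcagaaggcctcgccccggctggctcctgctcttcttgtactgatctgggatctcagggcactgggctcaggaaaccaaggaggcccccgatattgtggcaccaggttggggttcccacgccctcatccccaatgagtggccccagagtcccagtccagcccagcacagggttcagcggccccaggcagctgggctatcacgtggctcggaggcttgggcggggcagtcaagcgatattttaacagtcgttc
Plin5: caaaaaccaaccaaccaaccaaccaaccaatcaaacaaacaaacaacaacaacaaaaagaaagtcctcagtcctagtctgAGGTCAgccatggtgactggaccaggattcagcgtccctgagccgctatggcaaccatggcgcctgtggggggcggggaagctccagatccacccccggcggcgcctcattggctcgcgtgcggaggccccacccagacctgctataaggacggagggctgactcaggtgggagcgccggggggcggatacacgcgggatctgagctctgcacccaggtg
The receptor motif lies at bases 33 to 38 of the Plin2 window and at bases 81 to 86 of the Plin5 window. Windows were found for 6 of the 9 measured genes, 7 windows in all, because Plin5 has a second listed start, and the receptor motif was present for Cd36, Plin2 and Plin5. It was present in 16.3% of all 32851 promoter windows, counting both strands. The full direct repeat AGGNCANAGGNCA was present in 0.381% of all windows and the longer element TCAAGGTCA in 0.423%, and neither was in a window of these genes. Both of these longer motifs can contain AGGTCA. The E-box CACGTG was present in 7.15% of all windows and in that of Plin2, at bases 247 to 252. Both perilipins of opposite direction carried the receptor motif in these windows, and no difference between them was read from the letters.

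Day 1 array 13 and day 3 array 31 stood apart from their groups. Their median correlation with the arrays of the same group was 0.983 and 0.935, against 0.992 to 0.997 for the others. Positive control rows were brighter than negative control rows in a share of 0.755 and 0.743 of pairs on them, against 0.793 to 0.8245 on the other 14 arrays. Day 1 arrays had the lower separation as a group (mean 0.787, against 0.818 in sham, exact permutation p = 0.0286, the smallest that 4 against 4 arrays allow, and 0.0858 adjusted over 3 comparisons). The differences of the 9 genes from sham are therefore given with all arrays and again without arrays 13 and 31, a choice that other results of these data had prompted. For other genes values are from all arrays unless stated. The part that RNA or array quality plays in any difference was not tested. The defining cardiomyocyte genes were bright on the arrays, where the mean log2 signal of 15 such markers ran from 15.74 to 15.92 in sham. Quantile normalization lowered the median difference of all tested genes on day 1 to -0.149, against 0.064 as deposited, and the share of genes called higher to 14.2%, against 24.9%, while 32.7% were called lower, against 22.2%. On day 3 it gave 14.3% higher and 25.3% lower, against 23.5% and 20.2%. Differences below are on the log2 scale of the deposited signal.

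One gene of the 9 rose and most of the others fell. On day 1 Plin2 rose and 4 genes fell (Dgat2, Acot2, Plin5 and Fabp4), on day 3 Plin2 rose and 6 fell (Dgat2, Acot2, Plin5, Pnpla2, Lpl and Cd36), and on day 7 Plin2 rose and 4 fell (Acot2, Dgat2, Plin5 and Pnpla2), all against sham at an adjusted p under 0.05 in limma. These are 5, 7 and 5 of 9 genes, where 47.1%, 43.7% and 24.8% of all tested genes were called on the same days. In the falling direction the counts of 4, 6 and 4 stand beside 22.2%, 20.2% and 9.92% of all tested genes, and the 1 gene that rose each day beside 24.9%, 23.5% and 14.9%. The median difference of the 9 genes was -0.66 on day 1, -1.29 on day 3 and -0.61 on day 7, where that of all tested genes was 0.064, 0.082 and -0.006. The median of the 9 genes was -0.28, -0.65 and -0.61 without arrays 13 and 31, where array 13 alone moved day 1 to -0.28 and array 31 alone moved day 3 to -0.65. After quantile normalization it was -1.14, -1.69 and -0.64. Without arrays 13 and 31 the share of all genes called became 57.7%, 49.1% and 40.6%, and Cd36 and Lpl were called lower on day 7 as well. Fabp3 is left out here, because its row was nearly flat near the top of the scale outside arrays 13 and 31. The arrays of the infarcted and sham groups did not overlap for 5, 7 and 8 of the other 8 genes. Of all tested genes 55.0%, 42.8% and 38.3% showed this. The 3 comparisons share the sham arrays. Because whole tissue was measured, fewer cells of a type and less RNA per cell cannot be told apart.

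**Figure D1:**
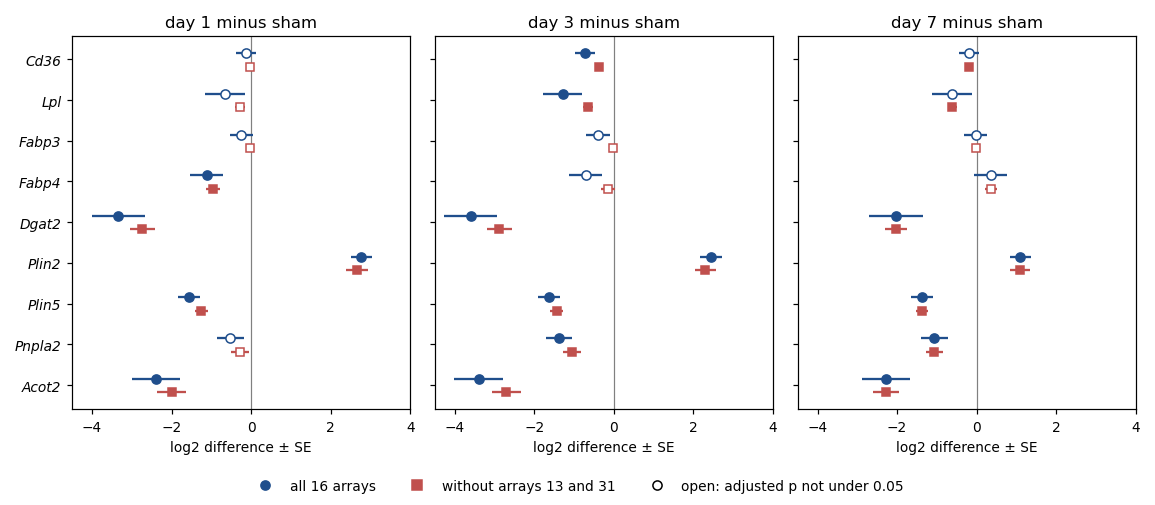
Log2 difference from sham with its standard error for the 9 genes on days 1, 3 and 7, from all 16 arrays (circles) and without arrays 13 and 31 (squares), where filled symbols mark an adjusted p under 0.05. Plin2 lies right of 0 on all 3 days, at 2.77, 2.44 and 1.10, and Dgat2, Acot2 and Plin5 lie left of 0 on all 3.

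The uptake genes Cd36 and Lpl fell on day 3. Cd36, which encodes a fatty acid transporter of the cell membrane, was among the brightest genes of the tissue. It read 19.26, 19.33, 19.22 and 19.30 log2 units in sham atria and 19.20, 19.41, 18.86 and 19.14 on day 1, and these groups overlapped. On day 3 it read 17.47, 18.95, 19 and 18.79, and on day 7 19.10, 19.08, 19.10 and 19.01, all below the lowest sham array. The difference from sham was -0.13 ± 0.25 (SE) on day 1 (adjusted p = 0.695), -0.73 ± 0.25 on day 3 (adjusted p = 0.0297) and -0.20 ± 0.25 on day 7 (adjusted p = 0.648). Array 31 set much of the day 3 value: without arrays 13 and 31 it was -0.37 ± 0.06 (adjusted p = 0.000263), and the day 7 value of -0.20 ± 0.06 was then called too (adjusted p = 0.012). The day 3 call was lost when any 1 of the sham arrays was left out, with an adjusted p of 0.0515 to 0.0625. Signals near the top of the scale may be compressed: of 73 tested genes with a mean above 19, 42 varied by under 0.1 over the other 14 arrays, where Cd36 ran from 18.79 to 19.41. How far that reduced the size of its differences was not tested.

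Lpl encodes lipoprotein lipase, which works at the capillary wall and is made by muscle cells, adipocytes and macrophages. It read 17.39, 17.63, 17.91 and 17.77 in sham and 17.44, 17.62, 15.89 and 17.11 on day 1. It then read 14.45, 17.07, 16.94 and 17.05 on day 3 and 17.12, 17.10, 16.99 and 17.03 on day 7. Day 1 overlapped sham through arrays 11 and 12, and every array of days 3 and 7 was below every sham array. Lpl fell on day 3, with a difference of -1.29 ± 0.50 (adjusted p = 0.0485), and the differences of -0.66 ± 0.50 on day 1 (adjusted p = 0.281) and -0.61 ± 0.50 on day 7 (adjusted p = 0.436) did not pass. Without arrays 13 and 31 the differences were -0.28 ± 0.12, -0.65 ± 0.12 and -0.61 ± 0.11, and days 3 and 7 passed (adjusted p = 0.000551 and 0.00073). The SE pools the spread of all groups, so arrays 13 and 31 widened it on day 7 too, at the same difference. Leaving out array 31 alone gave -0.65 on day 3 with an adjusted p of 0.0896, and leaving out any 1 of 11 other arrays also lost that call.

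**Figure D2:**
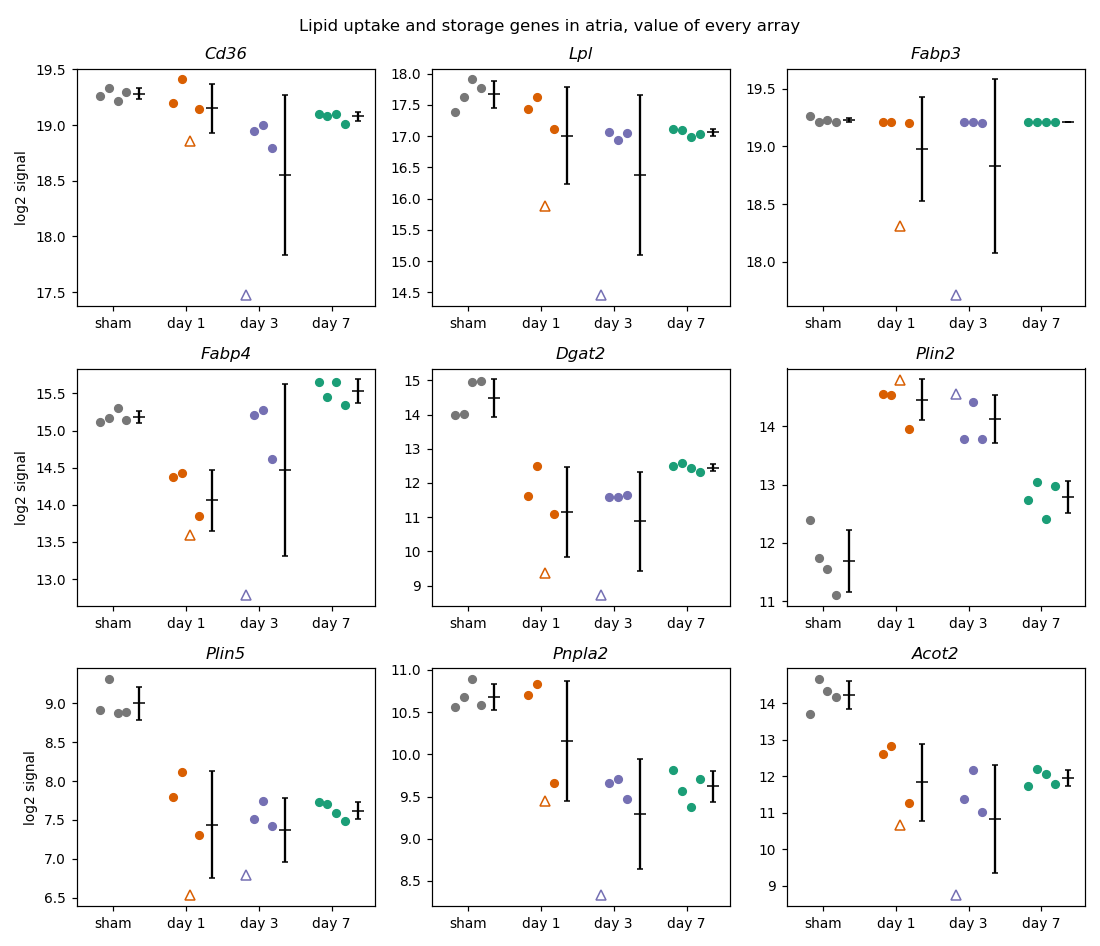
Log2 signal of the 9 genes on every array in sham atria and on days 1, 3 and 7, with the group mean and SD beside the points and open triangles for day 1 array 13 and day 3 array 31. Each panel has its own vertical range, and array 31 holds the lowest value of 7 genes, all but Plin2 and Plin5.

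The protein partners of lipoprotein lipase did not all follow it. Angptl4, a secreted inhibitor of the lipase and a PPAR target, read 5.83, 6.02, 4.76 and 4.77 in sham and 8.61, 8.11, 8.98 and 7.90 on day 1. It read 8.39, 8.29, 8.82 and 8.05 on day 3 and 6.94, 6.93, 6.98 and 6.82 on day 7, and no array after infarction reached down to the sham range. Its difference from sham was 3.05 ± 0.30 on day 1 (adjusted p = 4.59e-06), 3.04 ± 0.30 on day 3 (adjusted p = 4.01e-06) and 1.57 ± 0.30 on day 7 (adjusted p = 0.00159). Gpihbp1, the endothelial anchor of the lipase, was chosen after its values were seen; it fell on day 3, at -0.78 ± 0.26 (adjusted p = 0.0242), with -0.62 on day 1 and -0.51 on day 7 not called. Vldlr, a lipoprotein receptor, fell, at -2.11 on day 1 and -2.28 on day 3 (adjusted p = 0.00205 and 0.00102). The 15 tested genes of lipoprotein lipolysis and uptake other than the 9 went both ways: 3 rose and 4 fell on day 1, 4 rose and 5 fell on day 3, and 5 rose and 2 fell on day 7, with median differences of -0.29, 0.04 and 0.08. Msr1, a scavenger receptor of macrophages, rose most on days 1 and 3, by 4.43 and 3.88, and Lrp1, a lipoprotein receptor, on day 7, by 1.93. Got2, an aminotransferase also described as a fatty acid-binding protein of the membrane, fell, at -1.15 and -1.51 on days 1 and 3. On day 7 the falling genes were Lmf1, needed to fold the lipase, at -0.71, and Dbi, an acyl-CoA-binding protein, at -0.45.

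**Figure D3:**
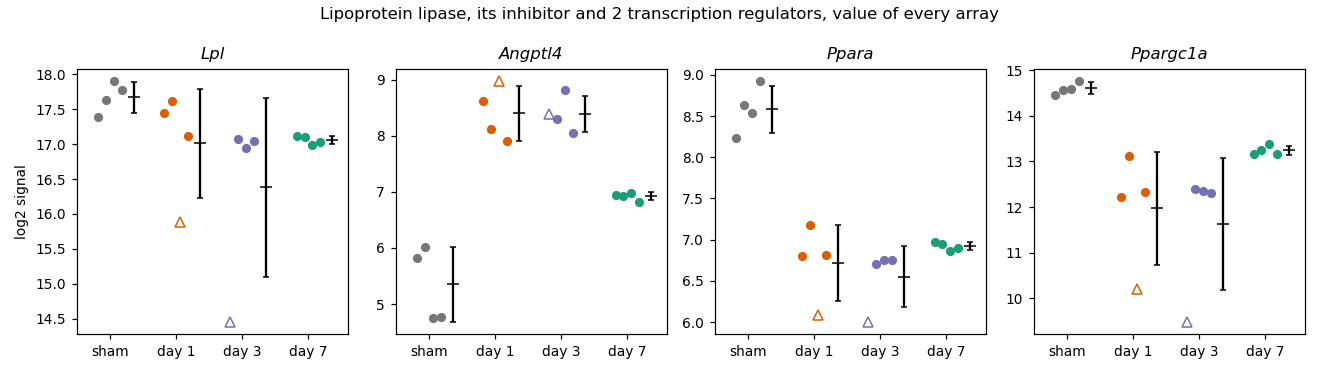
Log2 signal of Lpl, its inhibitor Angptl4 and the transcription regulators Ppara and Ppargc1a on every array in sham atria and on days 1, 3 and 7, with group mean and SD and open triangles for arrays 13 and 31. All infarcted arrays lie above all sham arrays for Angptl4 and below them for Ppara and Ppargc1a.

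Of the binding proteins, Fabp3, the form of heart muscle, could not be used to measure a difference. Leaving out arrays 13 and 31, it read between 19.20 and 19.26 on every array of all 4 groups, a range of 0.059 near the top of the scale. It read 18.31 on array 13 and 17.71 on array 31. With those arrays left out each difference from sham was -0.02, and none was called with or without them (adjusted p of 0.279 to 0.981 with all arrays). A second row of Fabp3 stayed between 3.34 and 3.68 on all 16 arrays and was not used. Whether the heart form changed cannot be told from this plateau.

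Fabp4, the form of adipocytes, capillary endothelium and macrophages, fell on day 1 and was higher again on day 7. It read 15.11, 15.17, 15.30 and 15.14 in sham and 14.38, 14.43, 13.59 and 13.85 on day 1. It read 12.78, 15.21, 15.27 and 14.62 on day 3, and 15.66, 15.45, 15.65 and 15.35 on day 7. All day 1 arrays were below sham, 2 day 3 arrays were inside the sham range, and all day 7 arrays were above it. The difference from sham was -1.12 ± 0.41 on day 1 (adjusted p = 0.039), -0.71 ± 0.41 on day 3 (adjusted p = 0.181) and 0.35 ± 0.41 on day 7 (adjusted p = 0.634). Without arrays 13 and 31 these became -0.96 ± 0.17 (adjusted p = 0.000324), -0.15 ± 0.17 (adjusted p = 0.511) and 0.35 ± 0.15 (adjusted p = 0.0909). After quantile normalization the day 3 difference was -1.53 and was called (adjusted p = 0.0353), and the day 7 difference of 0.35 was called with only day 7 and sham in the fit (adjusted p = 0.0108). The day 1 call was lost on leaving out array 13, array 14 or any sham array, with an adjusted p of 0.063 to 0.11. Its relative Fabp5, the form of skin and macrophages, read 5.62, 5.56, 5.59 and 5.48 on day 1, against 5.93, 6.02, 5.72 and 5.76 in sham, and that difference of -0.29 was not called. Fabp5 rose by 0.70 on day 3 and 0.83 on day 7 (adjusted p = 0.0327 and 0.0247), but not after quantile normalization (0.53 and 0.77, adjusted p = 0.158 and 0.08).

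Acsl1, the main acyl-CoA synthetase of heart, had no row, so the activation step is described through its relatives. Among the 9 other acyl-CoA synthetases tested, 2 rose and 7 fell on days 1 and 3, and 2 rose and 4 fell on day 7, with medians of -0.37, -0.43 and -0.32. The 2 that rose were Acsl4, a synthetase with a preference for arachidonic acid, by 1.31, 1.14 and 0.54, and Acsl5, by 1.05, 1.79 and 1.36. Acsl5 read 9.13, 9.05, 9.20 and 9.17 on day 1, against 8.22, 8.19, 7.97 and 7.95 in sham. The Acsl4 call on day 7 was lost after quantile normalization (adjusted p = 0.0927). Acss1, the mitochondrial acetyl-CoA synthetase, fell, at -2.40 on day 1 and -2.88 on day 3 (adjusted p = 0.0105 and 0.00311). Acss2, its cytosolic counterpart, fell, at -0.54 on day 7. Acss3 was at or below the negative control median on all 4 arrays of days 1 and 3, so its fall is given as a bound, at least -0.66 and -0.75 log2 units, and it fell, at -0.66 on day 7.

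Dgat2 had the largest fall of the 9 genes on days 1 and 3. It encodes an enzyme of the last step of triacylglycerol synthesis. It read 14.00, 14.01, 14.96 and 14.97 in sham, and 11.63, 12.50, 9.37 and 11.09 on day 1. It read 8.71, 11.58, 11.60 and 11.65 on day 3, and 12.49, 12.58, 12.43 and 12.31 on day 7. Every array after infarction was below every sham array, and within sham arrays 1 and 2 were lower than arrays 3 and 4. Dgat2 differed from sham by -3.34 ± 0.67 on day 1 (adjusted p = 0.00136), -3.60 ± 0.67 on day 3 (adjusted p = 0.000645) and -2.03 ± 0.67 on day 7 (adjusted p = 0.0392). Without arrays 13 and 31 it was -2.74 ± 0.31, -2.88 ± 0.31 and -2.03 ± 0.28, with an adjusted p of 1.16e-05, 6.03e-06 and 0.000102. The day 7 call with all arrays was lost when any 1 of 9 arrays was left out (all 4 sham arrays, array 14 and all 4 day 7 arrays), with an adjusted p up to 0.10.

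Dgat1, the other DGAT enzyme and one of a different protein family, was chosen for this contrast after its values were seen. It read 6.09, 6.19, 5.84 and 5.97 on day 1, 5.78, 5.88, 5.88 and 5.90 on day 3 and 5.82, 5.94, 5.92 and 5.74 on day 7, against 6.08, 5.89, 6.13 and 6.01 in sham. Its differences of -0.00 ± 0.08, -0.17 ± 0.08 and -0.17 ± 0.08 were not called (adjusted p = 0.988, 0.102 and 0.135), its sign on day 1 differed between settings, and the day 3 value of -0.34 after quantile normalization was called (adjusted p = 0.0421). The 13 tested genes of triacylglycerol synthesis other than Dgat2 had 2 that rose on each day, with 6, 6 and 4 that fell and medians of -0.30, -0.45 and -0.39. Lpin1, a phosphatidate phosphatase that also acts as a transcriptional coactivator, fell, at -2.62 and -2.93 on days 1 and 3. Gpam, the mitochondrial enzyme of the first step, fell, at -2.28 on day 1 and -1.79 on day 3 (-1.13 on day 3 without arrays 13 and 31). Gpd1 and Gpd1l, which handle glycerol 3-phosphate, fell most on day 7, at -0.74 and -0.69. The genes that rose were Agpat4, by 0.44, 0.58 and 0.47, and Lpin2, by 0.38, 0.40 and 0.25.

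Plin2, the perilipin found on droplets of most cell types, was the one gene of the 9 that rose. It read 12.39, 11.74, 11.55 and 11.10 in sham, and 14.55, 14.54, 14.79 and 13.96 on day 1. It read 14.55, 13.78, 14.42 and 13.78 on day 3, and 12.74, 13.04, 12.42 and 12.97 on day 7. Every array after infarction was above every sham array, although the lowest on day 7 was only just above the highest in sham. The difference from sham was 2.77 ± 0.27 on day 1 (adjusted p = 5.25e-06), 2.44 ± 0.27 on day 3 (adjusted p = 1.11e-05) and 1.10 ± 0.27 on day 7 (adjusted p = 0.00917). It was 2.66, 2.30 and 1.10 without arrays 13 and 31, which held the highest reading of their groups. With any single array left out the adjusted p was at most 3.94e-05, 7.4e-05 and 0.0332 on the 3 days.

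Plin5, the perilipin of oxidative tissues that tethers droplets to mitochondria, fell. It read 8.92, 9.31, 8.87 and 8.89 in sham, and 7.80, 8.12, 6.53 and 7.31 on day 1. It read 6.79, 7.51, 7.75 and 7.42 on day 3, and 7.73, 7.70, 7.59 and 7.48 on day 7. No array after infarction reached the sham range on any day. Plin5 differed from sham by -1.56 ± 0.28 on day 1 (adjusted p = 0.000601), -1.63 ± 0.28 on day 3 (adjusted p = 0.000347) and -1.37 ± 0.28 on day 7 (adjusted p = 0.00262). It was -1.25, -1.44 and -1.37 without arrays 13 and 31, and the 3 calls held on leaving out any single array.

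Of the other perilipins, Plin3 and Plin4 moved with Plin5 and not with Plin2. Plin3, a widely expressed cytosolic perilipin, read 8.21, 8.77, 6.78 and 7.51 on day 1, against 9.88, 10.05, 10.52 and 10.35 in sham. It fell, at -2.38, -1.97 and -1.44 on days 1, 3 and 7 (adjusted p = 0.000373, 0.0012 and 0.0169). Plin4, which lies beside Plin5 on chromosome 17, read 9.10, 9.85, 8.01 and 8.87 on day 1, overlapping the 9.18, 9.75, 9.36 and 9.91 of sham. Plin4 fell, at -1.61 on day 3 and -1.15 on day 7 (adjusted p = 0.0023 and 0.0309), with -0.59 on day 1 not called (-0.27 without arrays 13 and 31). With array median centring both day 7 falls kept their sign and missed the threshold (adjusted p = 0.0504 for Plin3 and 0.0913 for Plin4). Plin1, the perilipin of adipocytes, was at or below the negative control median on all 16 arrays. The signs of the Plin3, Plin4 and Plin5 differences and of the Plin2 difference were the same at all 3 days with quantile normalization, with median centring and without arrays 13 and 31.

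**Figure D4:**
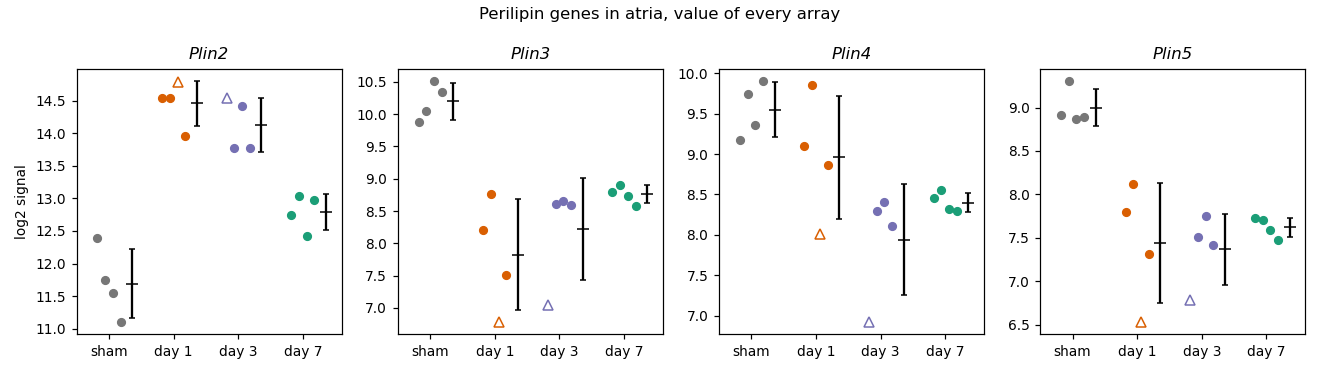
Log2 signal of Plin2, Plin3, Plin4 and Plin5 on every array in sham atria and on days 1, 3 and 7, with group mean and SD and open triangles for arrays 13 and 31. Plin2 lies above the sham range on all days, and Plin3 and Plin5 lie below it.

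The 14 tested genes of droplet coat and assembly other than Plin2 and Plin5 had 2 that rose and 8 that fell on days 1 and 3, and 0 and 5 on day 7, with medians of -0.61, -0.41 and -0.22. Those that rose were Hilpda, an inhibitor of the Pnpla2 lipase, by 1.5 on day 1 (adjusted p = 0.00463), Ubxn4 by 1.03 and 0.49 on days 1 and 3, and Aup1, a protein of droplets and endoplasmic reticulum, by 0.44 on day 3. The day 3 rises of Ubxn4 and Aup1 were not called after quantile normalization or median centring. Hilpda read 6.79, 6.22, 7.63 and 7.11 on day 1, against 5.55, 5.48, 5.36 and 5.39 in sham, and 7.58 on day 3 array 31, against 5.63 to 5.84 on the other day 3 arrays. Fitm1 and Fitm2 encode proteins of the endoplasmic reticulum needed for droplets to form. Fitm1 fell, at -3.01 and Fitm2 at -1.98 on day 3 (-2.23 and -1.58 without arrays 13 and 31), and Fitm2 at -1.21 on day 7. Mettl7a1, a droplet-associated methyltransferase-like protein, fell, at -2.08 on day 1.

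Pnpla2 encodes adipose triglyceride lipase, the first enzyme of droplet lipolysis. It read 10.56, 10.68, 10.89 and 10.58 in sham, and 10.70, 10.83, 9.45 and 9.66 on day 1. It read 8.33, 9.66, 9.71 and 9.47 on day 3, and 9.81, 9.57, 9.38 and 9.71 on day 7. On day 1 arrays 11 and 12 were inside the sham range and arrays 13 and 14 were 1 unit or so below it, while all arrays of days 3 and 7 were below sham. The difference from sham was -0.52 ± 0.33 on day 1 (adjusted p = 0.205), -1.38 ± 0.33 on day 3 (adjusted p = 0.00375) and -1.06 ± 0.33 on day 7 (adjusted p = 0.0306). Without arrays 13 and 31 it was -0.28 ± 0.23 (adjusted p = 0.308), -1.06 ± 0.23 (adjusted p = 0.00151) and -1.06 ± 0.21 (adjusted p = 0.00126). After quantile normalization the day 1 difference was -0.98 and was called (adjusted p = 0.039). The day 7 call with all arrays was lost on leaving out any sham array or array 72, 73 or 74, with an adjusted p up to 0.0798.

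The cofactors of the lipase were chosen after their values were seen. Abhd5, its coactivator, fell, at -0.72 on days 1 and 3 (adjusted p = 0.00848 and 0.00816), with -0.48 on day 7 not called with all arrays but called without arrays 13 and 31 (adjusted p = 0.000523). G0s2, its inhibitor, fell, at -0.42 on day 3 (adjusted p = 0.013) and differed by -0.03 and -0.10 on days 1 and 7. Of the 12 tested genes of lipolysis other than Pnpla2, 0 rose and 5 fell on day 1, 2 rose and 5 fell on day 3, and 2 rose and 1 fell on day 7, with medians of -0.11, -0.37 and -0.09. Ces1d, a carboxylesterase with triacylglycerol hydrolase activity, fell on all 3 days, at -2.57, -3.00 and -2.19, and Prkaca, the catalytic subunit of protein kinase A, at -1.68 and -1.78 on days 1 and 3. Lipa, the acid lipase of lysosomes, rose by 1.33 on day 3 and 2.03 on day 7 (adjusted p = 0.00693 and 0.000876). The Lipa call on day 3 was lost after quantile normalization (0.93, adjusted p = 0.102). Prkar2b, a regulatory subunit of protein kinase A, rose by 0.34 on day 3 and Pnpla6, a phospholipase, by 0.24 on day 7. Neither of these small rises was called after quantile normalization or median centring.

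Acot2 encodes a mitochondrial thioesterase that splits fatty acyl-CoA into free fatty acid and coenzyme A. It read 13.72, 14.66, 14.35 and 14.18 in sham, and 12.61, 12.83, 10.66 and 11.26 on day 1. It read 8.74, 11.38, 12.18 and 11.03 on day 3, and 11.74, 12.21, 12.07 and 11.79 on day 7. All 12 arrays after infarction lay below all 4 sham arrays. Acot2 differed from sham by -2.39 ± 0.61 on day 1 (adjusted p = 0.00647), -3.40 ± 0.61 on day 3 (adjusted p = 0.000518) and -2.28 ± 0.61 on day 7 (adjusted p = 0.0142). It was -2.0, -2.70 and -2.28 without arrays 13 and 31, and the calls held on leaving out any single array, with an adjusted p of at most 0.0249, 0.00233 and 0.0435.

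Acot1, the cytosolic thioesterase that is a close copy of Acot2, fell, at -1.46, -1.39 and -1.37 on days 1, 3 and 7 (adjusted p = 0.000631, 0.000749 and 0.00181). The sequences are similar enough that their probes may read both transcripts, which was not tested. Of the 10 tested thioesterases other than Acot2, 2, 1 and 1 rose and 6, 6 and 4 fell, with medians of -0.36, -0.31 and -0.31. Acot9, also mitochondrial, read 9.75, 9.54, 9.61 and 9.74 on day 1, against 8.28, 8.43, 8.21 and 8.50 in sham, and rose by 1.31, 1.26 and 0.65 on the 3 days. Acot10 rose by 0.50 on day 1, but not without arrays 13 and 31 (0.28, adjusted p = 0.0596), nor after quantile normalization or median centring. Acot13 fell, at -1.64 on day 1 and -1.47 on day 3 (-0.83 on day 3 without arrays 13 and 31), and Acot11 at -0.42 on day 7.

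Between the days, Plin2 and Fabp4 were the only genes of the 9 called with all arrays. Day 7 was lower than day 3 for Plin2, at -1.34 ± 0.27 (adjusted p = 0.00613), and lower than day 1, at -1.67 ± 0.27 (adjusted p = 0.000585), and the arrays overlapped in neither case. After quantile normalization the fall between day 7 and day 3 was -0.85 and was not called (adjusted p = 0.0989). Fabp4 was higher on day 7 than on day 1, by 1.46 ± 0.41 (adjusted p = 0.0192), and by 1.31 (adjusted p = 0.0609) without array 13 alone. In all, 0 of 9 genes were called between days 3 and 1, where 8.11% of all tested genes were, 1 of 9 between days 7 and 3, where 12.6% were, and 2 of 9 between days 7 and 1, where 26.4% were. At an unadjusted p under 0.05, Cd36 (0.031) and Pnpla2 (0.02) would pass between days 3 and 1. The day 7 and day 3 arrays did not overlap for 4 genes (Cd36, Fabp4, Dgat2 and Plin2), where 21.9% of all tested genes showed this. The day 7 and day 1 arrays did not overlap for Fabp4 and Plin2, where 41.7% did, and those of days 3 and 1 for none, where 10.4% did.

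Arrays 13 and 31 decided how many genes differed between the days. Without them 4 genes were called between days 3 and 1, where 31.5% of all genes were: Pnpla2 at -0.79, Lpl at -0.37, Cd36 at -0.34 and Fabp4 at 0.81 (adjusted p = 0.0255, 0.0456, 0.00228 and 0.00419). Between days 7 and 1, 5 were then called, where 44.3% were: Fabp4 at 1.31, Plin2 at -1.56, Pnpla2 at -0.78, Lpl at -0.33 and Cd36 at -0.18. On the 14 arrays, then, the means of Pnpla2, Lpl and Cd36 were lower on days 3 and 7 than on day 1. Only 3 day 1 arrays remained, and of these array 14 read 9.66 for Pnpla2, inside the ranges of days 3 and 7. It read 17.11 for Lpl, inside the day 7 range. With array 13 alone or array 31 alone left out, none of these 3 genes was called between days 3 and 1 or days 7 and 1. No difference between 2 days was called for Dgat2, Plin5 or Acot2 with all arrays or without these 2, where the largest of those differences with all arrays was 1.57 ± 0.67 for Dgat2 between days 7 and 3 (adjusted p = 0.141). Dgat2 was called higher on day 7 with array weights, at 0.89 relative to day 3 and 0.95 relative to day 1 (adjusted p = 0.041 and 0.0249), and at 1.30 relative to day 1 without array 31 alone (adjusted p = 0.0367).

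Genes of the next step and of its control mostly fell on days 1 and 3. For each list here and above, 22.2%, 20.2% and 9.92% of all tested genes were called lower on days 1, 3 and 7, and 24.9%, 23.5% and 14.9% higher. Of 10 genes of mitochondrial fatty acid entry, 1 rose and 7 fell on days 1 and 3, and 1 rose and 4 fell on day 7, with medians of -1.40, -1.55 and -0.91. Cpt2 and Cpt1b, the inner and the muscle outer carnitine palmitoyltransferase, fell, at -2.49 and -1.95 on day 1 and Cpt2 at -2.83 on day 3, Slc25a20, the acylcarnitine carrier, at -2.24 on day 3 and -1.43 on day 7, and Crat, carnitine acetyltransferase, at -1.45 on day 7. Acaca, which makes malonyl-CoA, rose by 0.28 and 0.25 on days 1 and 3, but neither rise was called after quantile normalization or median centring. Its relative Acacb, of the same list and named after its values were seen, went the other way. Acacb fell, at -1.85 ± 0.51 and -1.80 ± 0.51 on days 1 and 3 (adjusted p = 0.00961 and 0.0104 in limma). Cpt1c was called higher on day 7 but was at or below the negative controls on 3 of 4 day 7 arrays and all 4 sham arrays, so that no size can be read. Of 14 genes of PPAR, RXR and their coactivators, 0, 1 and 1 rose and 11, 11 and 6 fell, with medians of -0.79, -0.80 and -0.47. Ppara read 6.80, 7.18, 6.09 and 6.81 on day 1, 6.00, 6.70, 6.75 and 6.75 on day 3 and 6.97, 6.95, 6.86 and 6.90 on day 7, against 8.23, 8.63, 8.54 and 8.93 in sham. It fell, at -1.86, -2.03 and -1.66 (adjusted p = 2.21e-05, 8.23e-06 and 0.000115). Ppargc1a, a coactivator of PPAR-alpha, fell, at -2.63 on day 1 and -2.96 on day 3 (adjusted p = 0.00415 and 0.00164), with -1.35 on day 7 not called with all arrays but called without arrays 13 and 31 (adjusted p = 2.66e-05); Lpin1, given above, fell on days 1 and 3 too. Rxrg, an RXR form of muscle, fell, at -1.21 on day 7, and Srebf2, a regulator of sterol synthesis, rose by 0.42 and 0.23 on days 3 and 7. Neither rise of Srebf2 was called after quantile normalization or median centring. Of 18 other genes known as PPAR targets, 2, 1 and 1 rose and 10, 13 and 2 fell, with medians of -0.96, -1.38 and -0.78, so that on day 7 the share that fell was near that of all genes. Those that rose were Angptl4 and, on day 1, Hilpda, and Eci1, an isomerase of fatty acid oxidation, fell, at -1.77 and -2.46 on days 1 and 3 and Ech1, a related isomerase, at -1.03 on day 7. The lists share genes, among them Lpin1, Cpt1b, Slc25a20, Angptl4 and Hilpda. Day 7 counts depended most on the setting: without arrays 13 and 31, 7 genes of mitochondrial entry, 10 of PPAR and its partners, 12 PPAR targets, 8 of triacylglycerol synthesis and 4 of lipolysis were called lower, and with median centring 1, 3, 0, 0 and 1 were. Without arrays 13 and 31 the share of all tested genes called lower on day 7 was 19.3%.

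Markers of other cell types moved on the same arrays. Of all tested genes, 24.9%, 23.5% and 14.9% were called higher on days 1, 3 and 7, and 22.2%, 20.2% and 9.92% lower. Macrophage markers rose for 9, 15 and 14 of 16 genes, and their mean ran from 1.70 to 1.95 above the sham mean on day 1, from 1.48 to 3.17 on day 3 and from 2.01 to 3.13 on day 7, against -0.11 to 0.10 in sham. Neutrophil markers rose for 11, 11 and 0 of 12 tested genes, with a mean 4.65 to 5.96, 1.74 to 5.17 and 0.33 to 0.64 above sham. Fibroblast markers rose for 0, 5 and 8 and fell for 7, 3 and 1 of 12. Their mean ran from -0.98 to -0.09, -0.07 to 1.69 and 2.50 to 3.06 relative to sham. Array 31 set 1 end of each of these day 3 ranges, at 1.48 for macrophage, 5.17 for neutrophil and -0.07 for fibroblast markers. The other day 3 arrays ran from 2.93 to 3.17, 1.74 to 2.32 and 1.5 to 1.69. Of 13 markers of lipid-laden macrophages, which include Lpl and Plin2, 4, 8 and 10 rose and 1, 2 and 1 fell. The mean of the macrophage markers was above sham on every array after infarction, and that of the neutrophil markers was lowest after infarction on day 7. The part of these cells in the rise of Plin2, Angptl4 and Acsl5 was not tested.

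Cardiomyocyte markers fell for 3, 6 and 0 of 15 genes on days 1, 3 and 7, where 22.2%, 20.2% and 9.92% of all tested genes fell. The mean of these markers was -0.86 to -0.41 relative to the sham mean on day 1, -2.14 to -0.56 on day 3 (the lowest on array 31) and -0.61 to -0.29 on day 7. Without arrays 13 and 31 it was -0.69 to -0.41, -0.60 to -0.56 and -0.61 to -0.29, and 8, 9 and 7 of the 15 were called lower. Of all tested genes 24.6%, 20.9% and 19.3% were then called lower. Endothelial markers, which mark cells that make Fabp4 and Gpihbp1, rose for 1, 2 and 3 and fell for 4, 3 and 1 of 16. Their mean ran from -0.77 to -0.10, -0.78 to 0.05 and -0.06 to 0.44 relative to sham. Without arrays 13 and 31 it ran from -0.42 to -0.10 on day 1 and -0.13 to 0.05 on day 3. The share of all tested genes called higher was 24.9%, 23.5% and 14.9%. Adipocyte markers were poorly measured: 7 of 16 were tested, Plin1, Lep, Adig, Pck1, Lgals12 and Trarg1 were at or below the negative control median on every array, and Adipoq was so on 14 of 16 arrays. The mean of those 7 was -1.17 to -0.34, -1.15 to -0.19 and -0.78 to 0.42 relative to sham on days 1, 3 and 7. Of the 7, 0 rose and 2, 2 and 1 fell. The part that cell composition plays in the falls of Dgat2, Acot2, Plin5, Pnpla2, Lpl and Fabp4 was not tested.

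**Figure D5:**
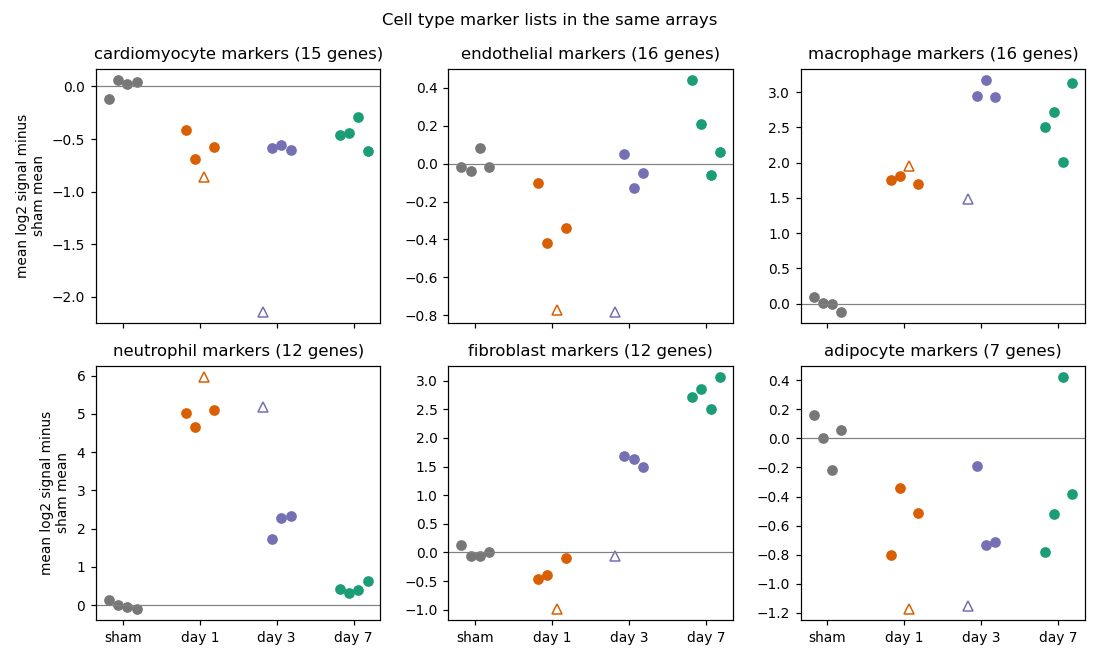
Mean log2 signal of 6 marker lists relative to their sham mean on every array in sham atria and on days 1, 3 and 7, with open triangles for arrays 13 and 31. Macrophage and neutrophil markers lie above sham on day 1, and cardiomyocyte markers lie below it, lowest on array 31 at -2.14.

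Within the group of 9, most genes ran together over the arrays and Plin2 ran against them. Leaving out Fabp3, the Pearson correlation of Plin2 with each of the other 7 genes was negative, from -0.86 to -0.42 over 16 arrays and from -0.87 to -0.27 over 14 arrays without arrays 13 and 31. The 21 pairs among those 7 genes were positive over 16 arrays, from 0.41 to 0.94, and 18 of 21 were positive over the 14, where the 3 exceptions all involved Fabp4. Acot2 and Plin5 were the closest pair over the 14 arrays, at 0.97. The points share group, array and depth of signal, so these values describe the arrays and carry no test. Over all genes tested and 16 arrays, the closest to Dgat2 were Oxa1l and Dhrs11 (0.994 and 0.993), to Acot2 Rnf128 and Zfp317 (0.983 each), to Plin5 Mrpl45 and Srpk3 (0.985 and 0.977), and to Lpl Acadl and Me1 (0.983 and 0.982). Those closest to Plin2 were Sbno2 and Il4ra (0.973 and 0.971), to Cd36 Mtmr1 and Eif4g2 (0.973 and 0.97), to Fabp4 Serf2 and Ube2h (0.974 and 0.968), to Pnpla2 Rab11b and Rab11b-ps2 (0.969 and 0.966), and to Fabp3 Serinc3 and Btbd1 (0.995 and 0.986). Over the 14 arrays the first neighbour was still Oxa1l for Dgat2, Rnf128 for Acot2 and Serf2 for Fabp4, and it became Coro1a for Plin2 (0.971), Jph1 for Lpl (0.976), Bcl2l13 for Plin5 (0.988), Mypn for Cd36 (0.929), Rab11b-ps2 for Pnpla2 (0.951) and Hes7 for Fabp3 (0.913). The Fabp3 row was nearly flat on the other arrays, so its neighbours over 16 arrays follow mainly its low readings on arrays 13 and 31. Over the 14 arrays its neighbour follows a range of only 0.059.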

How the data were processed

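The deposited values are log2 signals, 1 column per array and 72688 rows. Affymetrix Expression Console made them, per the submitters' processing notes. Its version, background correction, summarisation and scaling and the genome build were not given in the sources used. The rows are named as transcript clusters, which another array design than the one in the labels uses, so the design is uncertain and log2 differences are not turned into folds. GEO's platform annotation gave 1 symbol to 30604 rows, several to 2146 and none to 33206; 6732 rows were controls. Symbols were updated through RefSeq gene names for 827 rows.

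A gene was tested when its value lay above the median of all rows on at least 4 arrays (18418 genes). limma 3.58.1 in R 4.3.3 fitted 1 mean per group over 16 arrays (lmFit, eBayes with a variance trend), and p-values were Benjamini-Hochberg adjusted over all genes tested, with calls under 0.05. Tested on simulated data for day 3 against sham (18418 genes), the fit called 96% and 98% of 50 genes each changed by -2 and 2, 78% of those changed by -1 or 1, and 0.05% of unchanged genes. In that simulation few genes changed, and noise was independent between genes with the same spread on every array. Arrays 13 and 31 depart from that setting, and far more genes were called here, so these rates may not hold for these data. Precision is limited by having 4 arrays a group. Alternatives were quantile normalization, array median centring, no filter, no variance trend, array weights, only the 2 groups compared, the mean of all rows of a gene, and leaving out each array and arrays 13 and 31 together. Members, pathway and marker lists were chosen with earlier results of these data known. Named from each list were the 2 called genes that rose and the 2 that fell most against sham. Also named were relatives of the members, Acacb and, for each member, the 2 genes of highest correlation. A gene already given under one list is not repeated under another, and marker genes are given as counts. Reading a value at or below the negative control median as not above background, the plateau near the top of the scale and the lists recounted without arrays 13 and 31 were chosen after seeing the data. Python 3.11.15 with pandas 2.3.3 and scipy 1.17.1 was used.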

Additional observations from a re-analysis of the deposited data

Results flagged for a closer look

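In 36 groups of 4 arrays, 1 array lay far from the others in 6, where chance gives about 1 in 20 for a single group. The 36 groups are genes on the same arrays and not independent, so no excess over chance is read from the count. Day 3 array 31 was low for Cd36 at 17.47, for Lpl at 14.45, for Fabp3 at 17.71 and for Dgat2 at 8.71. Day 1 array 13 was low for Fabp3 at 18.31. Sham array 2 was high for Plin5 at 9.31, against 8.87 to 8.92 on the other sham arrays. The effect of infarction differed between days for Fabp4, by 1.46 on day 7 relative to day 1, and for Plin2, at -1.34 on day 7 relative to day 3 and at -1.67 relative to day 1, each by the limma test of that difference.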

How the results depend on the processing

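Calls against sham for Plin2, Dgat2, Plin5 and Acot2 on days 1 and 3 and for Plin2, Plin5 and Acot2 on day 7 kept their direction and their side of the threshold under all alternatives. The number of the 9 genes called between day 7 and sham, 5 with all arrays, was 3 with array median centring and 8 with only the 2 groups fitted. Between days 3 and 1 it was 3 with array weights and 4 without arrays 13 and 31, against 0. Of all tested genes 40.4% and 31.5% were then called, against 8.11%. Between days 7 and 3 it was 0 after quantile normalization and 3 with array weights, against 1, where 4.83% and 28.0% of all genes were called, against 12.6%. Between days 7 and 1 it was 4 with array weights and 5 without arrays 13 and 31, against 2. The shares of all genes were 52.1% and 44.3%, against 26.4%. They were not counted for median centring, fits of 2 groups or single arrays left out. Leaving out each array in turn gave 4 to 6 genes on day 1, 5 to 7 on day 3 and 3 to 5 on day 7 against sham, 0 to 1 between days 3 and 1 (1 without array 31), 1 between days 7 and 3, and 1 to 3 between days 7 and 1. Of 864 single-gene values with 1 array left out, 810 kept direction and side, 39 lost and 3 gained a call and 12 changed sign. All values that changed sign were uncalled with all arrays. Between days 7 and 1, Cd36 was 0.26 after quantile normalization and 0.11 after centring, Lpl -0.24 with array weights and -0.33 without arrays 13 and 31 (adjusted p = 0.0416), Plin5 -0.02 and -0.12, and Acot2 -0.26 and -0.28. Between days 3 and 1, Fabp3 was 0.03 with array weights and 0.0 without arrays 13 and 31, and Dgat2 was 0.05 with array weights. Fabp3 between day 7 and sham was 0.01 after centring. Single arrays left out gave -0.18 to 0.0 for Cd36, -0.33 to 0.25 for Lpl, -0.12 to 0.41 for Plin5 and -0.28 to 0.44 for Acot2 between days 7 and 1, and -1.01 to 0.01 for Lpl, -0.37 to 0.23 for Fabp3, -0.85 to 0.46 for Dgat2 and -0.38 to 0.15 for Plin5 between days 3 and 1. Against sham, calls were lost for Cd36 on day 3 after centring and with 2 groups (adjusted p = 0.0599 and 0.119), for Lpl on day 3 after centring, without the filter, without the trend and with 2 groups (0.0666, 0.0717, 0.0508 and 0.12), for Fabp4 on day 1 without the filter (0.0549), for Dgat2 on day 7 after centring and without the filter (0.0746 and 0.0576) and for Pnpla2 on day 7 after centring (0.0969). Calls against sham were gained after quantile normalization for Fabp4 on day 3 (-1.53, adjusted p = 0.0353) and Pnpla2 on day 1 (-0.98, 0.039), with 2 groups for Fabp4, Cd36 and Lpl on day 7 (0.0108, 0.00142 and 0.00137), with array weights for Cd36 and Lpl on day 7 (0.0446 and 0.00677), and without array 31 for Lpl on day 1 (0.0493). Between days 3 and 1, array weights gained Cd36, Fabp4 and Pnpla2 (0.00984, 0.00587 and 0.00602). They also gained Dgat2 and Fabp4 between days 7 and 3 (0.041 and 0.0345), and Dgat2 and Pnpla2 between days 7 and 1 (0.0249 and 0.00666). Quantile normalization lost Plin2 between days 7 and 3 (0.0989). Because the fit pools the spread of all groups, arrays 13 and 31 also bear on comparisons that do not include them, such as day 7 against sham. The cause of the other changes was not tested. No paired analysis was possible because the groups share no replicate numbers.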
